A study of Mus musculus with 6 samples.

Results

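Adult neurogenesis in the hippocampus was read through 10 marker genes, taken by name from a list that pairs each with a stage of the lineage, out of the 55471 genes in the count table. The 10 were Mki67 and Top2a for dividing cells, Eomes and Neurog2 for intermediate progenitors, and Neurod1, Dcx, Sox11, Sox4, Igfbpl1 and Calb2 for immature neurons. RNA-seq was performed on the hippocampus of 3 p300-ifKO mice and 3 control mice, 1 library per mouse. All 6 were C57BL/6 mice by their labels (C57BL/6J in the study's methods), 3 to 6 months old, males per the study's methods, and received 5 administrations of tamoxifen at 20 mg/ml in corn oil. The p300-ifKO mice carried floxed Ep300 alleles, which code for the acetyltransferase p300, and the creERT2 recombinase under the Camk2a promoter, which is active in excitatory neurons of the forebrain. After recombination a truncated p300 without acetyltransferase activity is made. Controls are described as littermates without creERT2 that were given tamoxifen too, although the label of each control library names the driver.

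In the adult dentate gyrus, radial glia-like stem cells give rise to intermediate progenitors that divide, leave the cell cycle and become immature neurons before they mature into granule neurons. Each step has its own transcription factors and structural proteins, so that transcripts of these genes are commonly used as a readout of neurogenesis. The dividing cells and neuroblasts are a small population in a whole hippocampus, and the Camk2a driver is directed at neurons rather than at stem cells.

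For none of the 10 genes did a test call a difference between p300-ifKO and control mice after adjustment. In DESeq2, 0 of 10 had an adjusted p under 0.05, where 0.0061% of the 32773 genes tested did (2 genes, Esr1 and Arsi, both higher). At an unadjusted p under 0.05 there were also 0 of 10, against 1.32% of all genes. The edgeR quasi-likelihood test and limma-voom, which tested 9 of the 10 because Eomes had too few reads, called 0 at either threshold. The log2 fold change of p300-ifKO against control was positive for 3 genes and negative for 7, with a median of −0.075, beside −0.046 over all genes tested and −0.006 over genes with a mean of at least 5 normalized counts (counts divided by the DESeq2 size factor). The 95% interval of the log2 fold change included 0 for 10 of 10 genes. For 7 of 10 it excluded both a halving and a doubling, and for 4 of 10 it excluded a change of 1.5 times in either direction. The genes with intervals that reached beyond a halving or a doubling were Top2a, Eomes and Igfbpl1, 3 genes with few reads.

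**Figure D1:**
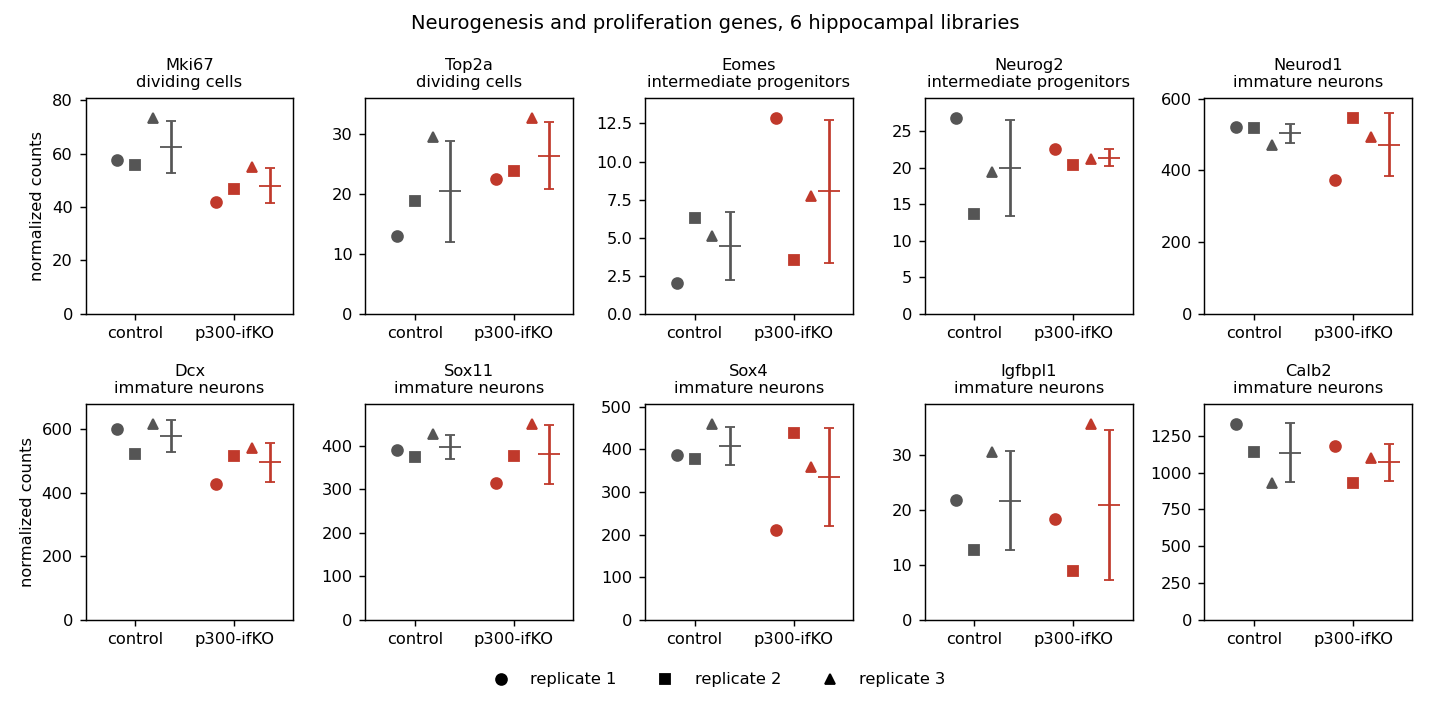
Normalized counts (y axis, from 0) of the 10 genes in each control (grey) and p300-ifKO (red) library, with symbols for replicate numbers and a bar for the mean ± SD of 3 mice beside the points. The groups overlapped in 9 panels and were apart in 1, Mki67, where the p300-ifKO values lay between 41.9 and 55.0 and the control values between 55.7 and 73.5.

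The libraries held between 23151568 and 28433823 counts. Ep300 itself had 1545, 1474 and 2334 normalized counts in controls and 478, 1350 and 912 in p300-ifKO mice, so that p300-ifKO 2 lay just under the lowest control. DESeq2 gave a log2 fold change of −0.97 (SE 0.33) with 0.991 as its adjusted p, and Ep300 passed without p300-ifKO 2 (−1.36, adjusted p 0.000356) and with 1 surrogate variable (−0.48, adjusted p 0.00127). Esr1, whose sequence creERT2 carries in part, was higher in 3 of 3 p300-ifKO mice, at 3167 ± 937 (SD, n = 3) normalized counts against 102 ± 12.5 (SD, n = 3) in controls. Arsi had 181 ± 20.1 (SD, n = 3) in p300-ifKO mice against 30.6 ± 7.46 (SD, n = 3) in controls. Esr1 and Arsi were the 2 genes called over the whole table, and the paper describes the rise of both as a feature of the driver strain. Transcripts that mark the labelled tissue were abundant in all libraries, with 4506 to 6352 normalized counts of Neurod6 for pyramidal neurons and 1561 to 2615 of C1ql2 for granule neurons. Libraries differed in how counts depended on transcript length. Across 17054 genes, the deviation of a library from the mean of the 6 had a Spearman correlation with exonic length of −0.505 in p300-ifKO 1 and −0.275 in p300-ifKO 3, but of 0.417 in p300-ifKO 2 and 0.163 to 0.413 in the controls. Without p300-ifKO 2, DESeq2 called 8.43% of 11129 genes with an adjusted p. For that reason the differences of the 10 markers are also given without single libraries and after a correction of each library for length and GC content (offsets). In whole tissue, fewer cells of a type and less RNA per cell cannot be told apart.

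The levels of the 10 genes spanned a wide range. As reads per kilobase of exon, scaled to a common library total (RPKM), Calb2 was first with a mean of 25.4 ± 3.57 (SD over 6 libraries), followed by Neurod1 (7.16 ± 0.873), Sox4 (3.11 ± 0.726), Sox11 (1.88 ± 0.243) and Dcx (1.70 ± 0.218). The other 5 were all under 0.5 RPKM in each library. Their means were 0.372 ± 0.0796 for Neurog2, 0.264 ± 0.131 for Igfbpl1, 0.219 ± 0.0435 for Mki67, 0.104 ± 0.0328 for Top2a and 0.0604 ± 0.0372 for Eomes. Among the 32774 genes with at least 1 read, 94.25% had a lower mean RPKM than Calb2, 64.73% a lower one than Dcx, 46.11% a lower one than Mki67 and 31.56% a lower one than Eomes. The markers of immature neurons other than Igfbpl1 thus stood above those of dividing cells and intermediate progenitors. Of the 9 pairs of neighbours in this order, 4 did not overlap over the libraries: Calb2 and Neurod1, Neurod1 and Sox4, Dcx and Neurog2, and Mki67 and Top2a. The other 5 pairs overlapped, although Sox4 was above Sox11 within each of the 6 libraries.

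**Figure D2:**
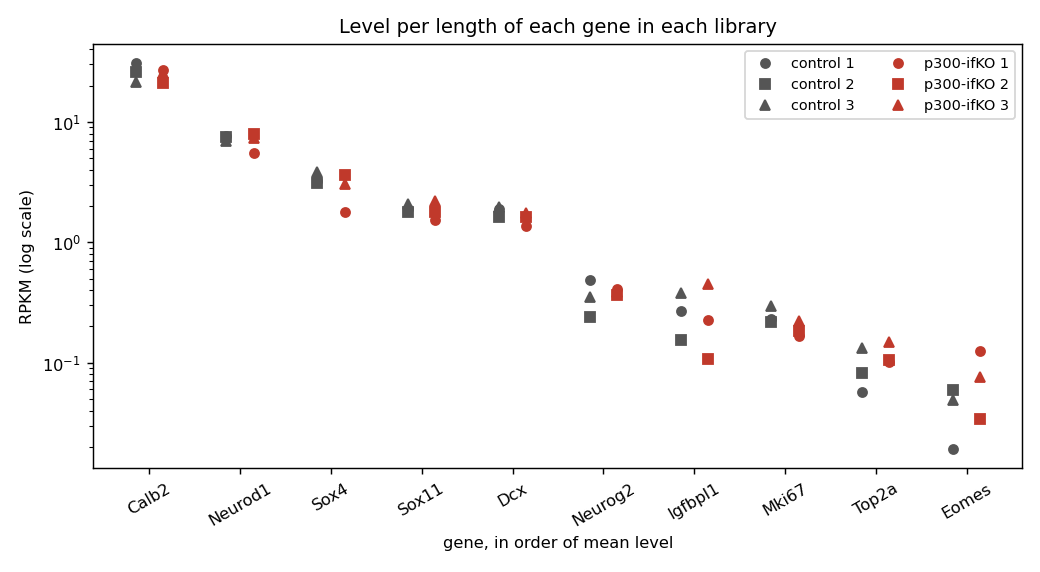
RPKM (log scale on the y axis) of the 10 genes in each of 3 control (grey) and 3 p300-ifKO (red) libraries, in order of the mean. A gap separates Calb2, Neurod1, Sox4, Sox11 and Dcx, with 1.36 RPKM or more in each library, from the other 5 genes, with 0.484 RPKM or less.

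The spread of each gene over the 6 libraries is given beside that from counting reads alone, which leaves out any difference between mice. For Neurog2 the coefficient of variation (CV) over libraries was 20.9%, close to the 21.9% that counting alone gives at its mean number of reads. The largest was that of Eomes, 61.1% with 40.3% from counting. Igfbpl1 had 48.5% with 21.7% from counting, Top2a 30.6% with 20.6%, and Mki67 19.7% with 13.4%. Among the 5 genes with the most reads, Sox4 stood apart with a CV of 23.5% against 5.15% from counting, whereas Dcx, Neurod1, Sox11 and Calb2 had between 12.2% and 14.0%, against 3.01% to 5.05% from counting.

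Mki67 (chromosome 7, 135689784 to 135716361 on the minus strand, GRCm38) encodes Ki-67, a nuclear protein made in cycling cells. It had 57.7, 55.7 and 73.5 normalized counts in controls and 41.9, 46.8 and 55.0 in p300-ifKO mice. All 3 p300-ifKO values lay below all 3 control values, although the highest of the former was within 1 normalized count of the lowest of the latter. Control mice averaged 62.3 ± 9.75 (SD, n = 3) and p300-ifKO mice 47.9 ± 6.61 (SD, n = 3), and the log2 fold change was −0.38 (SE 0.29, 95% interval −0.95 to 0.20, unadjusted p 0.197 and adjusted p 0.991 in DESeq2). Mki67 was the only one of the 10 genes whose groups did not overlap. Over the 18794 genes with a mean of at least 5 normalized counts, 3.49% had all p300-ifKO values below the control values and 4.12% had all of them above. With length and GC offsets the Mki67 values became 56.5, 55.3 and 63.4 in controls and 52.1, 42.9 and 57.6 in p300-ifKO mice, which overlapped, and the log2 fold change was −0.21. Leaving out each library in turn gave −0.49 to −0.24.

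Top2a (chromosome 11, 98992943 to 99024189 on the minus strand) encodes DNA topoisomerase II alpha, which untangles DNA in dividing cells. Its difference had the opposite sign, with 12.9, 18.9 and 29.6 normalized counts in controls and 22.6, 23.9 and 32.8 in p300-ifKO mice. Values of both groups overlapped, and control 1 had the lowest and p300-ifKO 3 the highest value. The log2 fold change was 0.37 (SE 0.47, 95% interval −0.54 to 1.28, unadjusted p 0.428 and adjusted p 0.991 in DESeq2), and it lay between 0.12 without control 1 and 0.74 without control 3. The 2 markers of dividing cells thus had fold changes of opposite sign in this comparison, and their intervals overlapped. With offsets the sign of both was the same as without, with 0.57 for Top2a.

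Both genes are known to be transcribed late in the cell cycle. Promoters of such genes often hold CCAAT boxes and a cell cycle homology region, for which the letters CCAAT and TTTGAA were searched on both strands in the 250 bases before each start site. The windows came from RefSeq (GRCm38.p6), which matched 8 of the 10 genes (9 windows, since Dcx has 2 starts), all but Igfbpl1 and Calb2. Over 32851 windows of that length, 33.85% held CCAAT, 15.99% held TTTGAA and 5.55% held both. The window of Mki67 (chr7:135716380-135716629, minus strand) held 3 and 2 matches, and that of Top2a (chr11:99024190-99024439, minus strand) held 6 and 2. Sox11 was the other gene of the 8 with both, with 1 match each. Sox4 had 4 matches to CCAAT, Eomes had 2 and 1 of the 2 Dcx windows had 1, while Neurog2 and Neurod1 had neither motif. The E-box CAGATG, a sequence that NeuroD factors can bind, was in 0 of the 9 windows and in 14.44% of all. The windows of the 2 markers of dividing cells are shown 5′ to 3′ on the strand of the gene because they hold the most matches to both motifs together, with matches to CCAAT or TTTGAA on either strand in capitals.
Mki67: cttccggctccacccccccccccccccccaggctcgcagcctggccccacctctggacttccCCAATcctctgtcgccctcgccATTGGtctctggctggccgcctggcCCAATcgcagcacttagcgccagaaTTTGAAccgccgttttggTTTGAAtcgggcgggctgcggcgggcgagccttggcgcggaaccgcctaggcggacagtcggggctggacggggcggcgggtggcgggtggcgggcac
Top2a: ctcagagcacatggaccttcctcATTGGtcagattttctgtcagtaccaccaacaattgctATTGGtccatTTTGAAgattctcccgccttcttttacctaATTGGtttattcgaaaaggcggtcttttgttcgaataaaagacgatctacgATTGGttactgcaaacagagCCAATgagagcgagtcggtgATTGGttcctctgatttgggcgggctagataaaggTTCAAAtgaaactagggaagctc
A match is a stretch of letters and not a measured binding site, and the 2 genes with the most matches had fold changes of opposite sign.

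Eomes (chromosome 9, 118478212 to 118486132 on the plus strand), also called Tbr2, is the T-box factor that marks intermediate progenitors. It was close to the limit of these libraries, with 2, 6 and 5 reads in controls and 12, 4 and 8 in p300-ifKO mice. Values of both groups overlapped, and its log2 fold change of 0.84 had an SE of 0.87 and a 95% interval from −0.87 to 2.55 (unadjusted p 0.335, adjusted p 0.991 in DESeq2), so that a difference of this size was not detectable at this depth. It was 0.33 without p300-ifKO 1, the library with 12 reads. Neurog2 (chromosome 3, 127633135 to 127635631 on the plus strand), a proneural factor of the same stage, had 26.9, 13.7 and 19.4 normalized counts in controls and 22.6, 20.3 and 21.2 in p300-ifKO mice. The 3 p300-ifKO values lay inside the range of the controls. Its log2 fold change was 0.09 (SE 0.45, 95% interval −0.80 to 0.98, adjusted p 0.991 in DESeq2), −0.11 without control 2 and −0.03 with offsets.

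Neurod1 (chromosome 2, 79452521 to 79456751 on the minus strand) encodes a transcription factor needed by newborn granule neurons and also expressed in mature ones. It had 521, 518 and 473 normalized counts in controls and 375, 548 and 495 in p300-ifKO mice. The lowest and the highest value both came from p300-ifKO mice, with p300-ifKO 1 below all others. Its log2 fold change of −0.09 (SE 0.18, 95% interval −0.45 to 0.26, adjusted p 0.991 in DESeq2) became 0.05 without p300-ifKO 1. Of the 50-base stretches of its exons, 9.66% also lie in exons of Cerkl on the same strand or of Gm26755 on the opposite strand. Cerkl had 54.7, 50.4 and 66.3 normalized counts in controls and 19.3, 54.8 and 41.5 in p300-ifKO mice, and was thus also lowest in p300-ifKO 1. Gm26755 was not analysed here.

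Dcx (chromosome X, 143855842 to 143933311 on the minus strand) encodes doublecortin, the microtubule-associated protein by which neuroblasts and immature neurons are most often recognised. It had 599.6, 521 and 617 normalized counts in controls and 427.5, 517 and 542 in p300-ifKO mice. The p300-ifKO mice were lower on average, but p300-ifKO 3 was above control 2. Control mice averaged 579 ± 51.2 (SD, n = 3) and p300-ifKO mice 495.5 ± 60.2 (SD, n = 3), and the log2 fold change was −0.23 (SE 0.16, 95% interval −0.54 to 0.09, unadjusted p 0.160 and adjusted p 0.991 in DESeq2), the smallest unadjusted p of the 10 genes. The direction changed with the correction for length and GC content. Dcx has the longest exonic sequence of the 10 genes, 12647 bases, and the lowest GC content, 39.5%, and the part of either was not tested. With length and GC offsets its values became 576, 506 and 507 in controls and 615, 451 and 564 in p300-ifKO mice. In this form p300-ifKO 1 moved from the lowest library to the highest, and the log2 fold change was 0.03. The interval without offsets excluded a decrease of 1.5 times, its lower end being 0.689 times the control level.

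Sox11 (chromosome 12, 27334264 to 27342574 on the minus strand) and Sox4 (chromosome 13, 28948919 to 28953713 on the minus strand) are SoxC transcription factors that drive the neuronal programme of neuroblasts, Dcx included. Sox11 had 391.8, 374 and 428.6 normalized counts in controls and 315, 376 and 451 in p300-ifKO mice. The p300-ifKO group held both its lowest and its highest value, and the log2 fold change was −0.06 (SE 0.18, 95% interval −0.42 to 0.29, adjusted p 0.991 in DESeq2), 0.05 without p300-ifKO 1 and 0.08 with offsets. Sox4 had 387, 377 and 460.2 normalized counts in controls and 212, 438 and 358 in p300-ifKO mice. The value of p300-ifKO 1 was well under the other 5, which ran from 358 to 460.2, and it was still the lowest with offsets, at 216 against 360 to 451. The log2 fold change was −0.28 (SE 0.26, 95% interval −0.79 to 0.24, unadjusted p 0.288 and adjusted p 0.991 in DESeq2). This value depended on 2 libraries. It was −0.04 without p300-ifKO 1 and −0.51 without p300-ifKO 2, with p 0.0295 before and 0.119 after adjustment in DESeq2, the lowest adjusted p of any of the 10 genes in any setting. More than any other of the 10 genes, Sox4 shares sequence with another gene. Of its 50-base stretches, 54.09% lie in exons of the noncoding gene Gm26735 on the opposite strand, whose counts were not analysed here. Since the strand setting of the counting is not stated, its counts are uncertain.

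Igfbpl1 (chromosome 4, 45809468 to 45826923 on the minus strand), a secreted protein of the insulin-like growth factor binding family found in immature neurons, had 21.9, 12.6 and 30.6 normalized counts in controls and 18.3, 8.84 and 35.7 in p300-ifKO mice. Control 3 and p300-ifKO 3 were high, and control 2 and p300-ifKO 2 were low, so that the groups overlapped over nearly their whole range. The log2 fold change was −0.06 (SE 0.60, 95% interval −1.24 to 1.12, adjusted p 0.997 in DESeq2), and ran from −0.69 to 0.32 when each library was left out. Calb2 (chromosome 8, 110137502 to 110168210 on the minus strand) encodes calretinin, a calcium-binding protein that immature granule neurons make for a short time and that interneurons, mossy cells and Cajal-Retzius cells of the hippocampus make as well. It had 1332, 1143 and 932 normalized counts in controls and 1178, 930.5 and 1099 in p300-ifKO mice, with overlap. The log2 fold change was −0.09 (SE 0.18, 95% interval −0.44 to 0.26, adjusted p 0.991 in DESeq2). With 1 surrogate variable, a covariate estimated from the counts, it was −0.25 with an unadjusted p of 0.0349, and 0 of the 10 genes passed after adjustment in that DESeq2 fit.

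**Figure D3:**
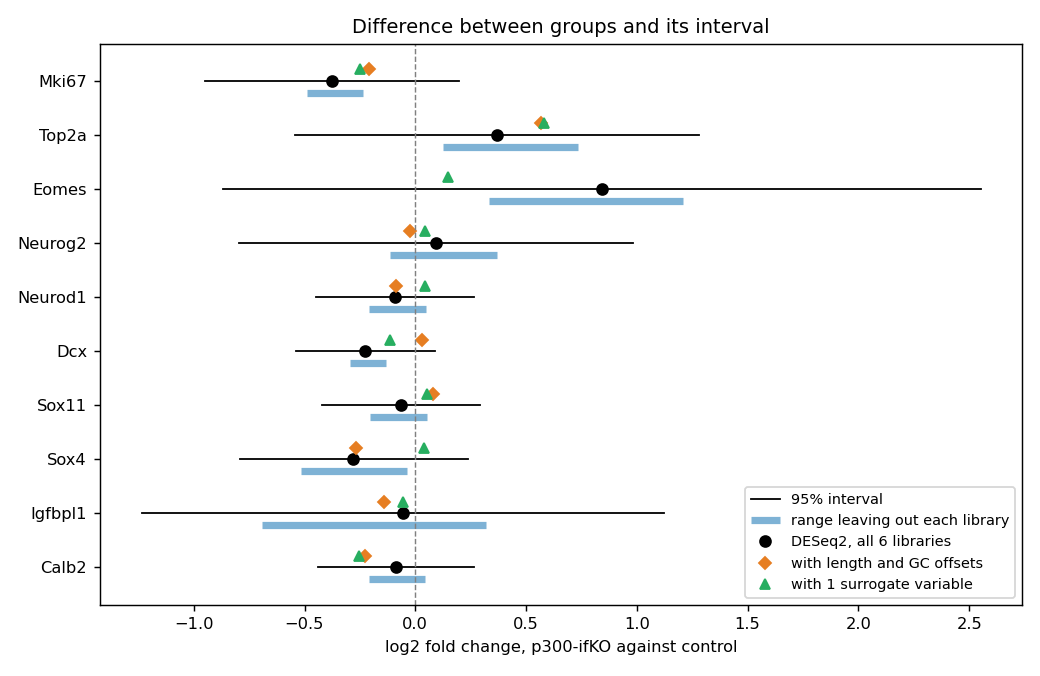
Log2 fold change of p300-ifKO against control (x axis) for each gene, with its 95% interval (line) in DESeq2, the range when each of the 6 libraries is left out (blue bar) and the values with length and GC offsets (diamond; none for Eomes, whose mean was too low) or 1 surrogate variable (triangle). Each of the 10 intervals crosses 0, and the Dcx value moves from −0.23 to 0.03 with offsets.

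The 6 markers of immature neurons all had a negative fold change, with a median of −0.089 and a range of −0.28 to −0.06. Leaving out single libraries turned the sign of some of them. Without p300-ifKO 1, Neurod1, Sox11 and Igfbpl1 were positive and Dcx, Sox4 and Calb2 stayed negative, while Calb2 turned positive without control 1, Igfbpl1 without control 3, and both without p300-ifKO 2. The lowest value of Neurod1, Dcx, Sox11 and Sox4, and of Mki67 besides, was that of p300-ifKO 1, the library with the strongest length trend, whereas it had the highest value of Eomes. Summed over the 6 genes, the normalized counts were 3253, 2946 and 2941 in controls and 2525, 2819 and 2981 in p300-ifKO mice, and p300-ifKO 3 was thus above 2 of the 3 controls. Calb2, which other cells make as well, was the largest part of this sum in each library, at 930.5 to 1332. The sum without Calb2 is not given here, and the order of the libraries can differ without it. Without p300-ifKO 1, the median was −0.004 over these 6 genes and 0.039 over all 10. With offsets, p300-ifKO 1 was no longer the lowest library for 3 of those 5 genes, Dcx, Sox11 and Mki67, and remained so for 2, Neurod1 and Sox4. The part of the length trend in its low values was not tested further.

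Igfbpl1 and Top2a had their highest values in the 2 libraries with the most Ttr. Ttr, the main secreted protein of the choroid plexus, had 646, 118 and 2804 normalized counts in controls and 827, 907.5 and 4488 in p300-ifKO mice. Summed over 8 choroid plexus and ependymal genes, the counts were 1580, 1060 and 4253 in controls and 1917, 2177 and 5904 in p300-ifKO mice, and none of the 8 was at 0 in any library. Control 3 and p300-ifKO 3 were the 2 highest libraries for this sum, for Igfbpl1, for Top2a and for Sox11. The sum was thus high in 1 library of each group. In these 2 libraries it was mostly Ttr, and control 3 and p300-ifKO 3 were the 2 highest libraries for 4 of the 8 genes, Ttr, Clic6, Folr1 and Aqp1. The other 4 had another pattern, with Kl highest in p300-ifKO 2, Tmem212 and Ccdc153 in p300-ifKO 1 and Foxj1 in control 3 followed by p300-ifKO 1. What part tissue from outside the hippocampus had in these counts was not tested.

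**Figure D4:**
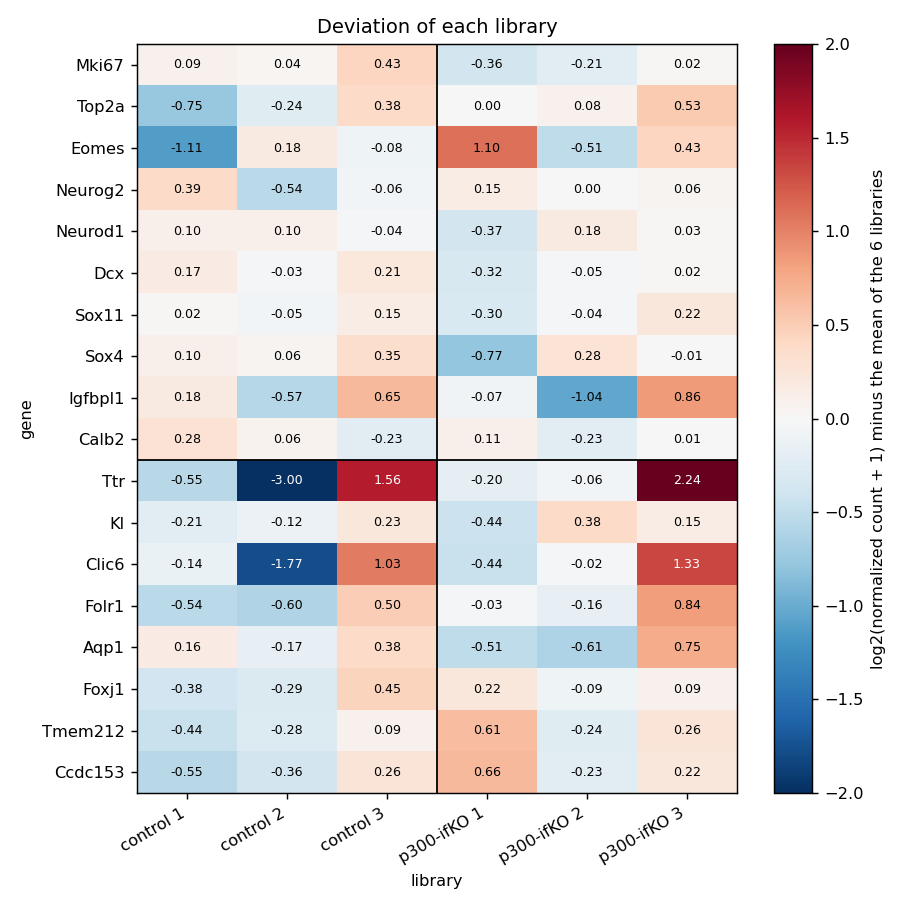
Deviation of each library (columns) from the mean of the 6 in log2(normalized count + 1), for the 10 genes and, under the line, the 8 choroid plexus and ependymal genes, with the value in each cell and colours limited to 2 either way. p300-ifKO 1 is lowest for 5 of the 10 genes, and Igfbpl1 and Top2a are highest in control 3 and p300-ifKO 3, the libraries with the most Ttr.

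Genes of the same pathway were read through 3 lists. Of 20 cell cycle genes, 8 had a positive and 12 a negative fold change, with a median of −0.096, and 0 passed in DESeq2, edgeR or limma-voom. At an unadjusted p under 0.05 there were 0 in DESeq2 and 1 of the 15 tested in edgeR and in limma-voom, Cenpf. Cenpf, a centromere protein of dividing cells, had 20.9, 18.9 and 30.6 normalized counts in controls and 12.9, 9.72 and 17.4 in p300-ifKO mice. All p300-ifKO values lay below the controls, and the log2 fold change was −0.82 (SE 0.49, unadjusted p 0.0968 and adjusted p 0.991 in DESeq2). Ccna2, the cyclin of S phase, had 72.6, 73.5 and 64.3 normalized counts in controls and 49.4, 61.9 and 55.9 in p300-ifKO mice, again with no overlap, and a difference of −0.33 on the log2 scale (SE 0.26, unadjusted p 0.214, adjusted p 0.991 in DESeq2). These were the 2 of 20 genes whose groups did not overlap, both lower, against 3.49% of all genes with all p300-ifKO values below the controls. With offsets they were still apart, but narrowly, with Cenpf at 18.6 to 24.9 in controls and 8.66 to 18.4 in p300-ifKO mice. Ccna2 was then at 61.9 to 73.7 in controls and 52.1 to 61.4 in p300-ifKO mice. No share over all genes is given for values with offsets, and the median of the list was 0.055 with them.

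Of 15 neural stem cell genes, 7 had a positive and 8 a negative fold change, with a median of −0.004, and 0 passed in DESeq2, edgeR or limma-voom. In each of the 3 tools 1 had an unadjusted p under 0.05, Hes1, a Notch target that maintains stem cells. Hes1 had 278, 274 and 246 normalized counts in controls and 321, 308 and 397 in p300-ifKO mice, all above the controls, which came to 0.36 on the log2 scale (SE 0.17, unadjusted p 0.0374 and adjusted p 0.991 in DESeq2). With offsets its values overlapped, since p300-ifKO 1 was then at 272.5 and the controls at 260.1 to 285. Id4, an inhibitor of basic helix-loop-helix factors that is abundant in stem cells and astrocytes, had 2214, 2431 and 2199 normalized counts in controls and 1945, 1920 and 2115 in p300-ifKO mice. These were all lower, by −0.20 as log2 fold change (SE 0.12, unadjusted p 0.0905 and adjusted p 0.991 in DESeq2). With offsets the groups overlapped here too, p300-ifKO 1 being at 2123 and control 3 at 2120. Pax6, named because its groups did not overlap either and thus chosen after its values were seen, had a log2 fold change of −0.14 (SE 0.17). Of the 15 genes, 1 thus had all p300-ifKO values above the controls and 2 had all below, against 4.12% and 3.49% of all genes.

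Of 20 progenitor and neuroblast genes, 7 had a positive and 13 a negative fold change, with a median of −0.089, and 0 passed in DESeq2, edgeR or limma-voom. In each of the 3 tools the same 3 had an unadjusted p under 0.05, 2 higher and 1 lower, against 1.32% of all genes in DESeq2. With length and GC offsets, 5 of the 20 were under that p in DESeq2, 2 higher and 3 lower, and the median was −0.139. Without p300-ifKO 2 there were 7, 2 higher and 5 lower, and without control 3 there were 0. Shares of all genes in these settings are not given here. Marcksl1, a membrane and actin-binding protein of immature neurons, had 1590, 1473 and 1287 normalized counts in controls and 2655, 1616 and 1990 in p300-ifKO mice. All p300-ifKO values were above the controls, p300-ifKO 1 most, and the log2 fold change was 0.53 (SE 0.20, unadjusted p 0.00969 and adjusted p 0.991 in DESeq2). Mfap4, a matrix protein, had 92.5, 83.0 and 69.4 normalized counts in controls and 148, 93.7 and 130.2 in p300-ifKO mice, again without overlap, at 0.60 as log2 fold change (SE 0.26, unadjusted p 0.0233 and adjusted p 0.991 in DESeq2). Dpysl3, a protein of growing axons that was named after its values were seen, had 1681, 1515 and 1654 normalized counts in controls and 1092, 1504 and 1296 in p300-ifKO mice, and a value of −0.32 as log2 fold change (SE 0.16, unadjusted p 0.0430 and adjusted p 0.991 in DESeq2). Of the 20 genes, 2 thus had all p300-ifKO values above the controls and 1 had all below, against 4.12% and 3.49% of all genes. Marcksl1, Mfap4 and Dpysl3 remained apart between groups with offsets, for which no share over all genes is given. The call of this list depended on p300-ifKO 2, the library with the most Ep300 among the p300-ifKO mice. Without it, 2 of the 15 genes with an adjusted p passed in DESeq2, Marcksl1 (0.68, adjusted p 0.0108) and Dpysl3 (−0.43, adjusted p 0.0398), where 8.43% of all genes did, and 0 of the 5 markers with an adjusted p passed.

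**Figure D5:**
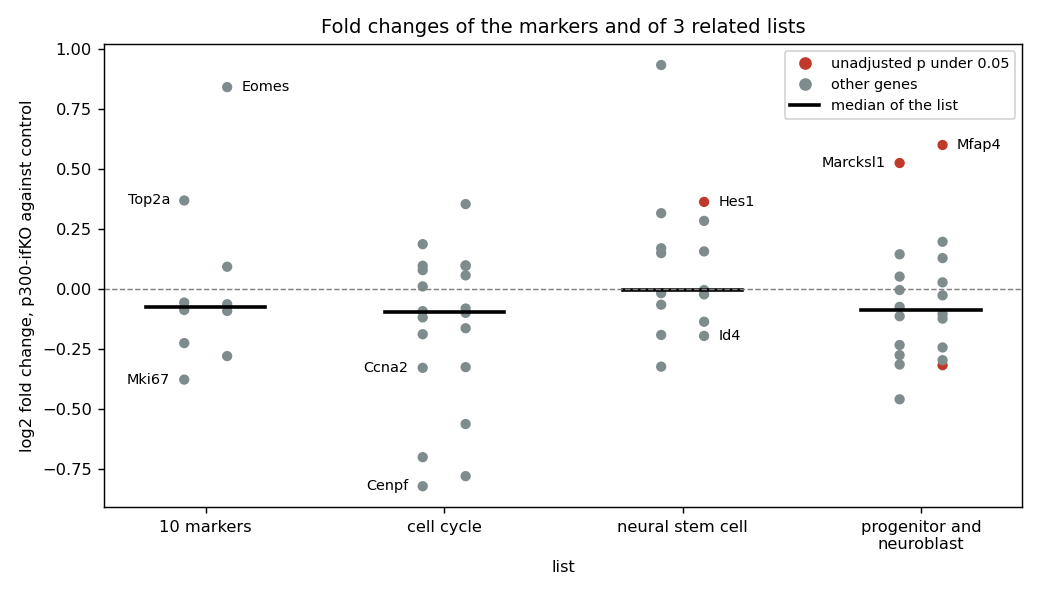
Log2 fold change of p300-ifKO against control (y axis) for the 10 markers and the genes of 3 related lists (1 point per gene, black bar for the median of a list, red for an unadjusted p under 0.05 in DESeq2). The medians lie between −0.096 and −0.004, and no gene passes after adjustment.

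Other cells that express some of the 10 genes, or that the dissection could include, were read through 12 marker lists, in each of which 0 genes passed in DESeq2. The median log2 fold change was −0.057 for mature granule neurons, −0.042 for pyramidal neurons, 0.008 for interneurons and −0.051 for Cajal-Retzius cells. It was −0.067 for the subventricular and olfactory lineage, 0.045 for thalamus and habenula, 0.039 for oligodendrocyte precursors and 0.184 for microglia. Astrocytes were at −0.057, choroid plexus and ependyma at 0.406, endothelium at −0.112 and blood at −0.331. Summed over the 6 Cajal-Retzius genes, a cell type that makes calretinin, the counts were 1644, 1498 and 1838 in controls and 1076, 1638 and 1467 in p300-ifKO mice. The sum was carried by Cacna2d2 and Ndnf, both lowest in p300-ifKO 1, as was Nhlh2. Trp73, another gene of the list, had 99.4, 89.3 and 136.7 in controls and 128.9, 90.1 and 120.5 in p300-ifKO mice. Lhx1 and Lhx5 had few reads, at 2.10 to 11.2 and 0.994 to 6.75 normalized counts. Neither Trp73 nor Calb2 was lowest in p300-ifKO 1. How much of each gene came from Cajal-Retzius cells was not tested. Genes of the subventricular and olfactory lineage, a second site of adult neurogenesis that shares Dcx and Sox11, had reads in all libraries. Dlx1 had 844 to 1001 normalized counts, but Tbx21 only 0.884 to 7.72. From which cells these reads came was not tested. The sum of this list was 2706, 2550 and 2358 in controls and 2142, 2399 and 2601 in p300-ifKO mice, without separation of the groups.

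The genes nearest to Dcx in their pattern over the 6 libraries were not among the other 9 markers. Likeness was measured as the root mean square difference of log2 values, each centred on its gene's mean, over 12252 genes with a mean of at least 100 normalized counts. The 5 nearest were Gjd2 (0.0223), Lingo2 (0.0280), Lgi2 (0.0366), Sgsm1 (0.0374) and Rxra (0.0442). Gjd2, which encodes the neuronal gap junction protein connexin 36, had 151, 127 and 154 normalized counts in controls and 107, 126 and 138 in p300-ifKO mice, the same order of libraries as Dcx. Sox11 was in place 490, within the nearest 4%, Neurod1 in place 2645, Sox4 in place 6758 and Calb2 in place 7796. Mki67, Top2a, Eomes, Neurog2 and Igfbpl1 had lower means and could not be ranked there. At a mean of at least 20 normalized counts, Mki67 was in place 1121 of 15450 genes, after Sox11 (510) and ahead of Neurod1 (2751). All of these points share the same 6 libraries and their length and GC trends.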

How the data were processed

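RNA-seq libraries of the hippocampus of 3 control and 3 p300-ifKO mice were analysed, grouped by sample titles. The authors deposited raw counts per gene. From single-end reads of 50 bases, they trimmed adapters with Trim Galore (version 0.6.4), aligned with STAR (version 2.6.1) to GRCm38, kept reads with a mapping quality above 10 and counted reads on exons with Rsubread. That limit removes reads that match several places. The strand setting is not given in the sources used here. Of the per-sample columns, 0 were left unused.

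Of the 55471 identifiers, 55230 (99.57%) matched GENCODE M21 (GRCm38), which gave symbols and coordinates. Each exonic stretch of 50 bases was searched for in exons of other genes. RPKM was computed from the counts, the deposited exonic length and the library total.

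The groups were compared with a two-sided Wald test in DESeq2 (version 1.42.0, R 4.3.3) with no covariate, over the whole table, with Benjamini-Hochberg adjustment and a threshold of 0.05. Values are counts divided by the size factor. Alternatives were edgeR (version 4.0.16; quasi-likelihood test, TMM factors, with and without a filter), limma-voom (version 3.58.1), TMM factors in DESeq2, only genes with 10 counts or more in 3 or more libraries, no Cook filter, no independent filtering, adjusted p under 0.1, a replicate block, 1 surrogate variable from sva (version 3.50.0), offsets for length and GC content, smoothed within each library by mgcv (version 1.9.3) over genes whose mean was above 10, and leaving out each library. The fits were tested on simulated data.

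The 10 genes, the lists and the tests were chosen with earlier results of these data known. Beyond the 10, each pathway list was to give the genes past the threshold and the 2 with the smallest unadjusted p, and each other list the 2 most abundant per length and any past the threshold. Ttr, Cerkl, Gfap, Nnat, Tubb3 and Gjd2 to Rxra were named for the reasons given beside them, and Ep300, Esr1 and Arsi as a check of the labels. With 3 mice a group, the p-values set each difference against an estimate of the variation between these few mice.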

Additional observations from a re-analysis of the deposited data

How the results depend on the processing

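Of the 10 markers, 0 were called in the main fit and under each of the 17 alternatives, and the lowest adjusted p was 0.119. Of 136 recomputed fold changes, 122 had the same direction and 14 the opposite one, in 7 genes, while Mki67, Top2a and Eomes kept theirs. With length and GC offsets the log2 fold change was −0.026 for Neurog2, 0.030 for Dcx and 0.078 for Sox11. With 1 surrogate variable it was 0.042 for Neurod1, 0.054 for Sox11 and 0.041 for Sox4. Leaving out each library gave −0.113 to 0.37 for Neurog2, −0.208 to 0.048 for Neurod1, −0.203 to 0.054 for Sox11, −0.692 to 0.32 for Igfbpl1 and −0.209 to 0.045 for Calb2. The cause was not tested.

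In the pathway lists, leaving out each library gave 0 calls for cell cycle and neural stem cell genes and 0 to 2 for progenitor and neuroblast genes, where the 2 came without p300-ifKO replicate 2. In that fit DESeq2 gave an adjusted p to 2 of the 20 cell cycle genes, 13 of the 15 stem cell genes and 5 of the 10 markers. Over the whole table it gave 2 to 938 genes, the latter without that library, and the cause was not tested. Same-numbered mice had correlations of deviations of 0.269, −0.279 and 0.134, so that the numbers were not taken to pair mice, and the replicate block called 4 genes over the whole table and 0 of the 10 markers. The 5 genes nearest to Dcx were the same 5 at a mean of at least 20 normalized counts. Depth limits what can be said of Eomes, Igfbpl1, Neurog2 and Top2a, with fewer than 40 reads in each library.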
